A study of Danio rerio with 20 samples.

Results

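The transcripts of gluconeogenesis described here encode the enzymes of its dedicated steps, measured in whole zebrafish larvae of 3 knockout genotypes and wild type. They were chosen by gene symbol, and 7 of the 32520 gene IDs in the count table matched: pck1, pck2, g6pc1a.1, g6pc3, fbp1a, fbp1b and fbp2. A further 4 IDs carried the symbols g6pc1 (2 IDs) and pc (2 IDs) without a paralog letter. They are described beside the 7 enzymes with their IDs and are not counted among them.

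Gluconeogenesis makes glucose from lactate, amino acids and glycerol. Pyruvate carboxylase turns pyruvate into oxaloacetate, phosphoenolpyruvate carboxykinase turns oxaloacetate into phosphoenolpyruvate, fructose-1,6-bisphosphatase removes a phosphate from fructose 1,6-bisphosphate, and glucose-6-phosphatase releases free glucose. These steps bypass the irreversible steps of glycolysis and run mainly in liver and kidney. Insulin lowers the transcription of several of these genes, and glucagon and glucocorticoids raise it.

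All larvae carried the Tg(fli1:EGFP) transgene, in which the fli1 promoter drives green fluorescent protein in endothelial cells. There were 4 genotypes with 5 libraries each: DKO (glo1-/-aldh3a1-/-, made with CRISPR/Cas9), GLO1KO (knockout of glo1), ALDH3A1KO (knockout of aldh3a1) and WT. Both targeted genes encode enzymes that clear reactive aldehydes: glo1 the glyoxalase for methylglyoxal, and aldh3a1 a dehydrogenase. The title of the series names impaired glucose metabolism in the double knockout. The sources used here do not give the larval age, the alleles of the single knockouts or how many larvae made up a library. They do not say either whether the libraries of a genotype came from separate clutches. The p-values therefore cover no more than the library-to-library spread seen here, part of which may be technical.

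Libraries held 35092716 to 37190519 counts, and the labels named no batch. The targeted glo1 transcript stood at 3.38 to 5.35 CPM (counts scaled to a common library size) in DKO and 3.28 to 4.22 in GLO1KO, against 62.2 to 71.4 in WT. It stood at 74.9 to 81.7 CPM in ALDH3A1KO, so no library went against its glo1 label. Counts of aldh3a1 were not analysed here. ALDH3A1KO replicate 3 had the lowest summed liver and enterocyte marker levels of all 20 libraries, and values without it are given where it bears on a result.

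The enzymes pck2, g6pc1a.1 and fbp1b fell in all 3 knockout genotypes, pck1 and fbp2 fell in DKO and ALDH3A1KO, and fbp1a rose in all 3. In DKO against WT, 5 of the 7 enzymes fell (pck1, pck2, g6pc1a.1, fbp1b and fbp2) and fbp1a rose. Of all 22234 genes tested in that comparison, 50.3% were called, 23.9% higher and 26.4% lower (edgeR adjusted p under 0.05). In GLO1KO against WT, 3 fell (pck2, g6pc1a.1 and fbp1b) and fbp1a rose, where 32.8% of all genes were called, 14.6% higher and 18.1% lower. In ALDH3A1KO against WT, the 5 enzymes that fell in DKO fell and fbp1a rose, where 61.3% of all genes were called, 29.4% higher and 32.0% lower. The enzyme g6pc3 was not called in any of the 3 comparisons. The median log2 fold change of the 7 enzymes was -0.62 in DKO, -0.48 in GLO1KO and -1.32 in ALDH3A1KO, beside medians of 0.01, -0.01 and 0.00 over all genes tested. The 3 comparisons share the WT libraries. Because whole larvae were measured, fewer cells of a type and less RNA per cell cannot be told apart.

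**Figure D1:**
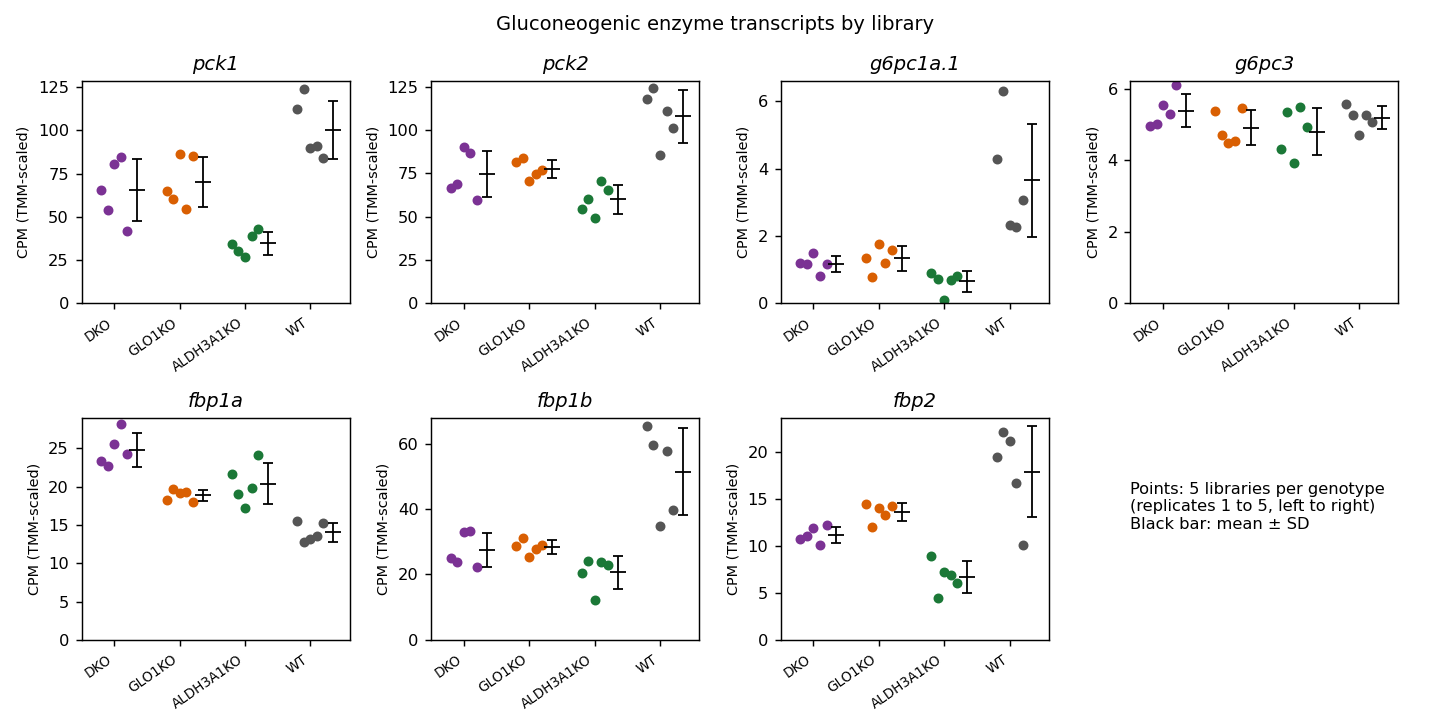
Level of each of the 7 enzymes in CPM (vertical axes, each starting at 0) in the 5 libraries of DKO, GLO1KO, ALDH3A1KO and WT, with the mean and SD as a black bar. The knockout libraries lie below most WT libraries for pck1, pck2, g6pc1a.1, fbp1b and fbp2, and above all WT libraries for fbp1a, and they overlap WT for g6pc3.

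Of the phosphoenolpyruvate carboxykinases, pck2 fell in all 3 knockout genotypes, and pck1 fell in DKO and ALDH3A1KO. The product of pck1 is the cytosolic enzyme and that of pck2 the mitochondrial one. In replicates 1 to 5, pck1 stood at 65.3, 53.7, 80.6, 84.7 and 42.0 CPM in DKO and at 65.2, 60.5, 86.2, 54.5 and 85.2 in GLO1KO. It stood at 34.5, 30.0, 26.7, 39.1 and 42.9 CPM in ALDH3A1KO, against 112, 124, 90.0, 90.7 and 84.1 in WT. All ALDH3A1KO libraries were thus below all WT libraries, whereas 1 DKO library and 2 GLO1KO libraries reached above the lowest WT library. The log2 fold change was -1.53 in ALDH3A1KO (SE 0.20, edgeR adjusted p = 3.73e-06), a 2.89-fold lower level. In DKO it was -0.62 (SE 0.19, edgeR adjusted p = 0.0132), a 1.53-fold lower level. In GLO1KO pck1 did not pass the test at -0.51 (SE 0.19, edgeR adjusted p = 0.0514). It passed there without WT replicate 5 (-0.57, edgeR adjusted p = 0.0455) and without GLO1KO replicate 3 (-0.59, edgeR adjusted p = 0.0397) or 5 (-0.59, edgeR adjusted p = 0.0387).

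The mitochondrial pck2 had a smaller change than pck1 in ALDH3A1KO. It averaged 74.3 ± 13.3 CPM in DKO, 77.4 ± 5.37 in GLO1KO and 59.9 ± 8.46 in ALDH3A1KO, against 108 ± 15.3 in WT (SD, n = 5 each). The highest DKO library (90.0 CPM) lay above the lowest WT library (85.4 CPM), and no GLO1KO or ALDH3A1KO library did. The log2 fold changes were -0.54 in DKO (SE 0.12, edgeR adjusted p = 0.000801), -0.48 in GLO1KO (SE 0.12, edgeR adjusted p = 0.00432) and -0.85 in ALDH3A1KO (SE 0.12, edgeR adjusted p = 3.90e-06). The difference between the isozymes was tested as the log2 ratio of pck1 to pck2 counts within a library, which does not depend on the scaling between libraries. That ratio averaged -0.80 ± 0.16 in ALDH3A1KO, against -0.11 ± 0.16 in WT (SD, n = 5 each, difference -0.69, exact permutation p = 0.00794, adjusted p = 0.0119 over 9 ratio tests). All 5 ALDH3A1KO libraries were below all 5 WT libraries, and 0.00794 is the smallest p this test can give. In DKO the ratio averaged -0.22 ± 0.21 (difference -0.11, exact permutation p = 0.405, adjusted p = 0.455), and in GLO1KO it averaged -0.16 ± 0.35 (difference -0.05, exact permutation p = 0.778, adjusted p = 0.778), and both overlapped WT. The GLO1KO ratios ranged from -0.47 to 0.29, with replicates 3 and 5 above 0 and the others below.

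The fructose-1,6-bisphosphatases did not move together: fbp1a rose in all 3 knockout genotypes, and fbp1b fell in all 3. The gene fbp1b is the second zebrafish copy of the gene that in mammals encodes the liver and kidney enzyme, and in mammals FBP2 is the muscle enzyme. In replicates 1 to 5, fbp1a stood at 23.3, 22.7, 25.5, 28.2 and 24.2 CPM in DKO and at 18.2, 19.7, 19.2, 19.2 and 18.0 in GLO1KO. It stood at 21.7, 19.1, 17.3, 19.9 and 24.2 CPM in ALDH3A1KO, against 15.5, 12.7, 13.2, 13.5 and 15.2 in WT. Every knockout library was above every WT library. The log2 fold changes were 0.82 in DKO (SE 0.08, edgeR adjusted p = 4.69e-08), 0.43 in GLO1KO (SE 0.08, edgeR adjusted p = 0.000508) and 0.54 in ALDH3A1KO (SE 0.08, edgeR adjusted p = 5.27e-06). These are levels 1.77-fold, 1.35-fold and 1.45-fold above WT.

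The second copy, fbp1b, moved the other way. In replicates 1 to 5 it stood at 25.1, 23.7, 33.0, 33.4 and 22.2 CPM in DKO and at 28.8, 31.3, 25.3, 27.9 and 28.9 in GLO1KO. It stood at 20.6, 24.0, 12.1, 23.8 and 22.8 CPM in ALDH3A1KO, against 65.2, 59.4, 34.9, 57.8 and 39.6 in WT. All knockout libraries were below all WT libraries, and WT replicates 3 and 5 were nearest to them. The log2 fold changes were -0.90 in DKO (SE 0.19, edgeR adjusted p = 0.000764), -0.85 in GLO1KO (SE 0.19, edgeR adjusted p = 0.00268) and -1.32 in ALDH3A1KO (SE 0.19, edgeR adjusted p = 1.35e-05). With 1 library left out at a time, the ALDH3A1KO value ranged from -1.43 to -1.17 and stayed called.

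The third gene of this family, fbp2, fell in DKO and ALDH3A1KO. It averaged 11.2 ± 0.867 CPM in DKO, 13.6 ± 0.983 in GLO1KO and 6.69 ± 1.66 in ALDH3A1KO, against 17.9 ± 4.83 in WT (SD, n = 5 each). WT replicate 5, at 10.1 CPM, lay far below the other WT libraries (16.6 to 22.1 CPM) and within the DKO range. The log2 fold changes were -0.68 in DKO (SE 0.17, edgeR adjusted p = 0.00204) and -1.42 in ALDH3A1KO (SE 0.17, edgeR adjusted p = 5.01e-07). In GLO1KO fbp2 did not pass at -0.39 (SE 0.17, edgeR adjusted p = 0.0733), and it passed without WT replicate 5 (-0.54, edgeR adjusted p = 0.00245). In the RefSeq gene table of assembly GRCz12tu, fbp2 and fbp1a are direct neighbours, with ctsla before fbp2 and kank1a after fbp1a.

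The difference in response between these paralogs was tested on the ratio within each library. The log2 ratio of fbp1a to fbp1b counts averaged -0.13 ± 0.19 in DKO, -0.59 ± 0.12 in GLO1KO and 0.02 ± 0.33 in ALDH3A1KO, against -1.83 ± 0.41 in WT (SD, n = 5 each). Each knockout genotype lay wholly above WT (differences 1.70, 1.25 and 1.85, each with exact permutation p = 0.00794 and adjusted p = 0.0119). This separation was already given by the levels, with fbp1a above and fbp1b below WT in every knockout library. The p of these tests was thus fixed beforehand and adds no support to those levels. In counts, there were 0.214 to 0.384 fbp1a reads per fbp1b read in WT, and 0.773 to 1.09 in DKO. The log2 ratio of fbp1a to fbp2 averaged 1.15 ± 0.20 in DKO and 1.64 ± 0.40 in ALDH3A1KO, against -0.30 ± 0.54 in WT (SD, n = 5 each, both exact permutation p = 0.00794, adjusted p = 0.0119). For ALDH3A1KO this too was given by the levels, as fbp2 was below WT in every library there. In GLO1KO the ratio of fbp1a to fbp2 averaged 0.47 ± 0.16 (exact permutation p = 0.0397, adjusted p = 0.0510), and WT replicate 5 overlapped that range. Without WT replicate 5 the GLO1KO difference was 1.0 in place of 0.78 (exact permutation test, adjusted p = 0.0102). That separation was again given by the levels, as every GLO1KO library was then above WT for fbp1a and below WT for fbp2. In DKO fbp2 overlapped WT only at WT replicate 5, and the p of that ratio adds no separate support to the levels. The counts do not show how reads shared by similar paralogs were assigned.

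**Figure D2:**
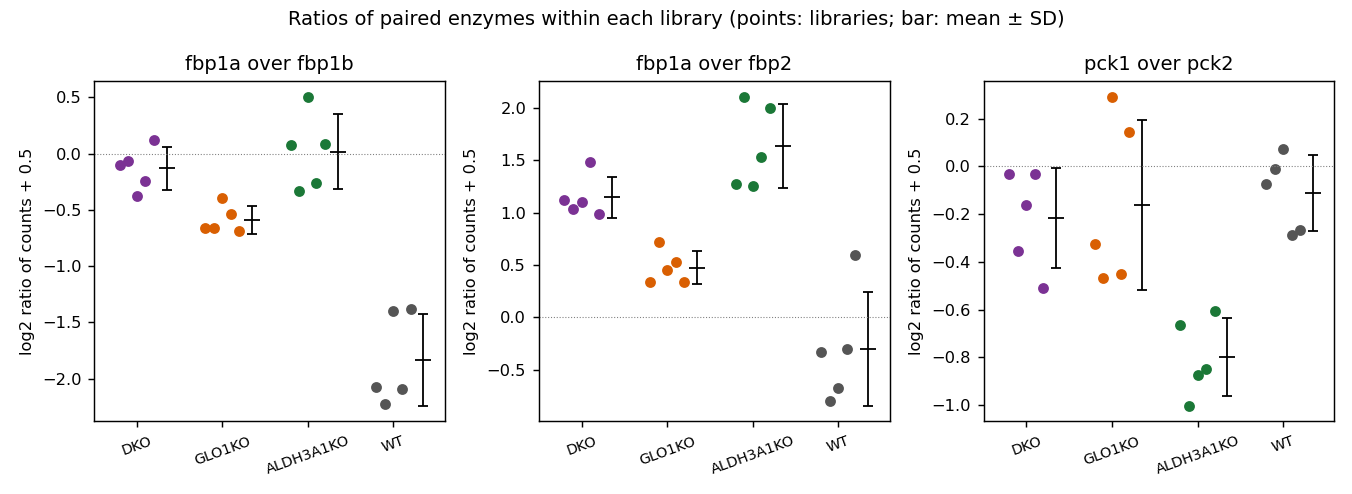
Log2 ratio of counts within each library (vertical axes) for fbp1a over fbp1b, fbp1a over fbp2 and pck1 over pck2, with points for the 5 libraries of DKO, GLO1KO, ALDH3A1KO and WT and bars for mean ± SD. All knockout libraries are above all WT libraries for fbp1a over fbp1b, and for pck1 over pck2 the 5 ALDH3A1KO libraries (the highest at -0.61) lie below all WT libraries (the lowest at -0.29).

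Among the glucose-6-phosphatase genes, g6pc1a.1 had the largest fold change of the 7 enzymes in every comparison with WT. G6pc1 genes encode the catalytic subunit of liver and kidney in mammals, and G6PC3 is expressed in most mammalian tissues. In replicates 1 to 5, g6pc1a.1 stood at 1.18, 1.15, 1.48, 0.805 and 1.17 CPM in DKO and at 1.33, 0.786, 1.77, 1.2 and 1.59 in GLO1KO. It stood at 0.905, 0.730, 0.110, 0.700 and 0.811 CPM in ALDH3A1KO, against 4.29, 6.30, 2.33, 2.26 and 3.07 in WT. No knockout library reached the lowest WT library, and WT itself spread widely, with a coefficient of variation of 46.3%. The gene is low, with 4 to 62 counts in a knockout library and 87 to 245 in a WT library. The log2 fold changes were -1.65 in DKO (SE 0.32, edgeR adjusted p = 0.000194), -1.45 in GLO1KO (SE 0.32, edgeR adjusted p = 0.00152) and -2.49 in ALDH3A1KO (SE 0.34, edgeR adjusted p = 1.77e-06). ALDH3A1KO replicate 3 held the 4 counts, and without it the ALDH3A1KO value was -2.21.

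The other enzyme of this step, g6pc3, overlapped WT in every knockout genotype. It averaged 5.39 ± 0.466 CPM in DKO, 4.92 ± 0.478 in GLO1KO and 4.80 ± 0.666 in ALDH3A1KO, against 5.19 ± 0.323 in WT (SD, n = 5 each). The log2 fold change was 0.06 in DKO (95% interval -0.16 to 0.27, edgeR adjusted p = 0.701). It was -0.08 in GLO1KO (-0.30 to 0.14, edgeR adjusted p = 0.635) and -0.11 in ALDH3A1KO (-0.33 to 0.11, edgeR adjusted p = 0.402). Changes within these intervals were not excluded. The g6pc1 copy ENSDARG00000013721 averaged 31.3 ± 6.41 CPM in DKO, 40.4 ± 4.46 in GLO1KO and 21.3 ± 4.67 in ALDH3A1KO, against 46.0 ± 8.34 in WT (SD, n = 5 each). Its log2 fold change was -0.56 in DKO (edgeR adjusted p = 0.00689) and -1.11 in ALDH3A1KO (edgeR adjusted p = 9.39e-06). In GLO1KO its log2 fold change was -0.19 (SE 0.16, edgeR adjusted p = 0.382). The g6pc1 copy ENSDARG00000014967 had 0 to 4 counts in a library and was too low to test.

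Pyruvate carboxylase starts the pathway in mitochondria, and its 2 copies fell in all 3 knockouts by unequal amounts. The pc copy ENSDARG00000051939 averaged 28.5 ± 5.78 CPM in DKO, 31.1 ± 6.79 in GLO1KO and 20.1 ± 5.48 in ALDH3A1KO, against 49.0 ± 8.43 in WT (SD, n = 5 each). Its log2 fold changes were -0.78 in DKO (SE 0.20, edgeR adjusted p = 0.00411), -0.65 in GLO1KO (SE 0.20, edgeR adjusted p = 0.0203) and -1.28 in ALDH3A1KO (SE 0.21, edgeR adjusted p = 3.91e-05). The GLO1KO call was lost without WT replicate 1 (edgeR adjusted p = 0.0548), GLO1KO replicate 3 (0.0539) or GLO1KO replicate 4 (0.0512). The pc copy ENSDARG00000098766 averaged 85.3 ± 2.54 CPM in DKO, 85.9 ± 2.76 in GLO1KO and 81.9 ± 5.61 in ALDH3A1KO, against 94.4 ± 2.98 in WT (SD, n = 5 each). Its log2 fold changes were -0.15 in DKO (SE 0.05, edgeR adjusted p = 0.0161), -0.13 in GLO1KO (SE 0.05, edgeR adjusted p = 0.0368) and -0.20 in ALDH3A1KO (SE 0.05, edgeR adjusted p = 0.000904). The DKO call of that copy was lost without DKO replicate 3 (edgeR adjusted p = 0.0546). Its GLO1KO call was lost without any one of WT replicates 1, 2 and 4 and GLO1KO replicates 1, 2, 3 and 4 (edgeR adjusted p 0.0533 to 0.0884).

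**Figure D3:**
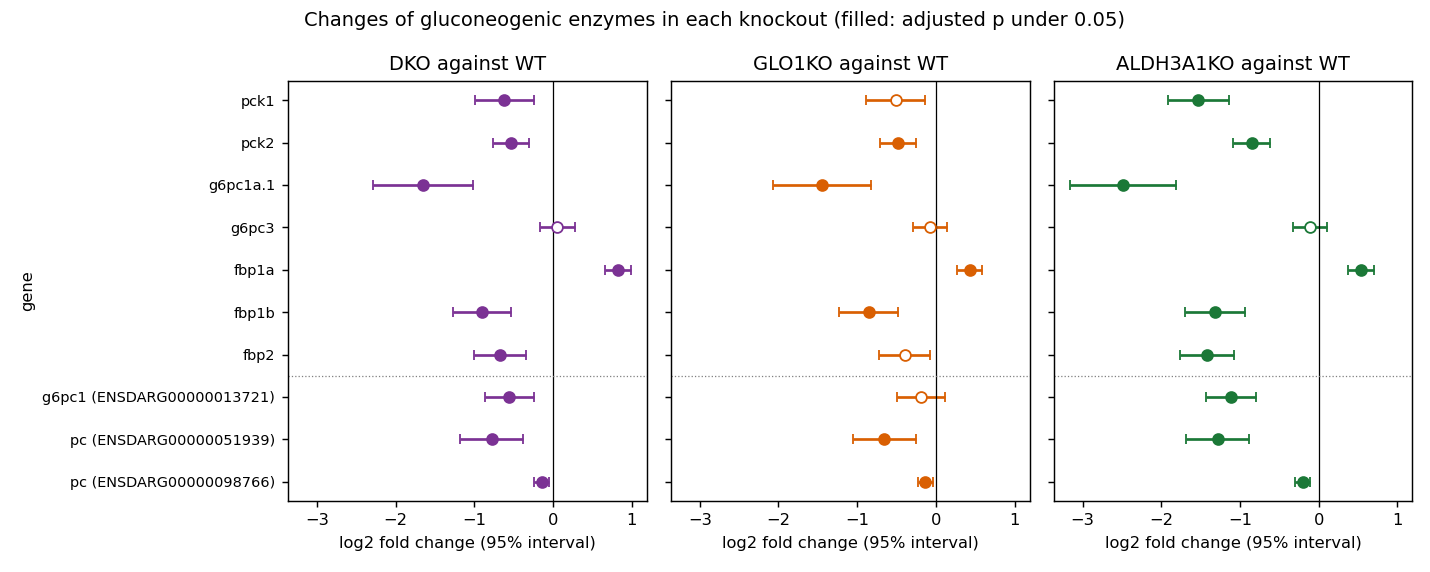
Log2 fold change with its 95% interval (horizontal axes) of the 7 enzymes and, under the dotted line, the g6pc1 and pc copies, in DKO, GLO1KO and ALDH3A1KO against WT. Filled points passed the test. The values of fbp1a (0.82, 0.43 and 0.54) are the positive ones that passed.

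The next comparisons asked how the double knockout differed from each single knockout. Against ALDH3A1KO, DKO had higher pck1 (log2 fold change 0.91, SE 0.20, edgeR adjusted p = 0.00297), fbp2 (0.74, SE 0.17, edgeR adjusted p = 0.00398) and fbp1a (0.28, SE 0.08, edgeR adjusted p = 0.0150), and none of the 7 enzymes was lower. Of all genes, 22.7% were called in that comparison, 11.1% higher and 11.6% lower. Of the 25 fast muscle markers described below, 21 were higher and 1 was lower there, with a median of 0.66. Of the liver markers 1 of 24 was higher and 0 were lower, and of the enterocyte markers 2 of 23 were higher and 0 were lower. All 5 DKO libraries were above all ALDH3A1KO libraries for fbp2 (10.1 to 12.2 CPM against 4.41 to 8.94 CPM). For pck1 the lowest DKO library (42.0 CPM) lay just under the highest ALDH3A1KO library (42.9 CPM). The fbp1a call was lost without ALDH3A1KO replicate 3 (edgeR adjusted p = 0.0539) or DKO replicate 4 (0.0573). The value of pck2 was 0.31 (SE 0.12, edgeR adjusted p = 0.0637), and it passed without ALDH3A1KO replicate 4 (0.0287) or DKO replicate 5 (0.0216). The values of fbp1b (0.41, SE 0.19, edgeR adjusted p = 0.139) and g6pc1a.1 (0.84, SE 0.37, edgeR adjusted p = 0.106) did not pass either. The g6pc1 copy ENSDARG00000013721 was higher by 0.55 (SE 0.16, edgeR adjusted p = 0.0187), a call that was lost without ALDH3A1KO replicate 3 (0.0513) or without DKO replicate 3 (0.0521) or 4 (0.0521).

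Against GLO1KO, only fbp1a among the 7 enzymes passed the test, higher in DKO by 0.39 (SE 0.08, edgeR adjusted p = 0.00397), where 11.3% of all genes were called, 4.52% higher and 6.82% lower. All 5 DKO libraries (22.7 to 28.2 CPM) were above all GLO1KO libraries (18.0 to 19.7 CPM). The intervals of the others were -0.49 to 0.27 for pck1, -0.29 to 0.17 for pck2, -0.42 to 0.33 for fbp1b, -0.61 to 0.05 for fbp2, -0.87 to 0.46 for g6pc1a.1 and -0.09 to 0.35 for g6pc3, on the log2 scale. For pck1, pck2, fbp1b, fbp2 and g6pc1a.1 the mean levels thus ran from ALDH3A1KO, the lowest, through DKO and GLO1KO to WT. None of these 5 passed the test between DKO and GLO1KO. The fbp2 libraries of these genotypes hardly overlapped, at 10.1 to 12.2 CPM in DKO against 12.0 to 14.4 CPM in GLO1KO (log2 fold change -0.28, edgeR adjusted p = 0.299), and fbp2 passed when only the 2 genotypes were fitted (-0.28, edgeR adjusted p = 0.0294). For fbp1a the order of the means was WT, GLO1KO, ALDH3A1KO and DKO, and DKO passed the test against each of the others. Its libraries overlapped those of ALDH3A1KO (17.3 to 24.2 CPM), and that call was lost without ALDH3A1KO replicate 3 or DKO replicate 4.

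The interaction compared the change in DKO with the sum of both single-knockout changes on the log2 scale. It was positive and passed for 5 of the 7 enzymes, the ones that fell in DKO, where 35.6% of all genes were called, 18.7% higher and 16.9% lower. For g6pc1a.1 the DKO change was -1.65 and the single changes summed to -3.94 (interaction 2.28, SE 0.48, edgeR adjusted p = 0.00108). For pck1 these values were -0.62 and -2.04 (interaction 1.42, SE 0.28, edgeR adjusted p = 0.000948). For fbp1b they were -0.90 and -2.17 (interaction 1.27, SE 0.27, edgeR adjusted p = 0.00189). The DKO falls of these genes were thus smaller than the sums. The same held for fbp2 (-0.68 and -1.81, interaction 1.13, SE 0.24, edgeR adjusted p = 0.00126) and for pck2 (-0.54 and -1.33, interaction 0.79, SE 0.17, edgeR adjusted p = 0.00134). For fbp1a the DKO change of 0.82 and the sum of 0.97 did not differ by the test (interaction -0.15, 95% interval -0.38 to 0.08, edgeR adjusted p = 0.345). For g6pc3 the interaction was 0.24 (95% interval -0.07 to 0.55, edgeR adjusted p = 0.239). Positive interactions were not particular to these enzymes. Of the tissue markers described below, 19 of 24 for liver, 18 of 23 for enterocytes and 22 of 25 for fast muscle were called higher. Their median interactions were 1.06, 1.26 and 0.72. For kidney proximal tubule 6 of 16 were called higher (median 0.55), and 0 markers of these lists were called lower.

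**Figure D4:**
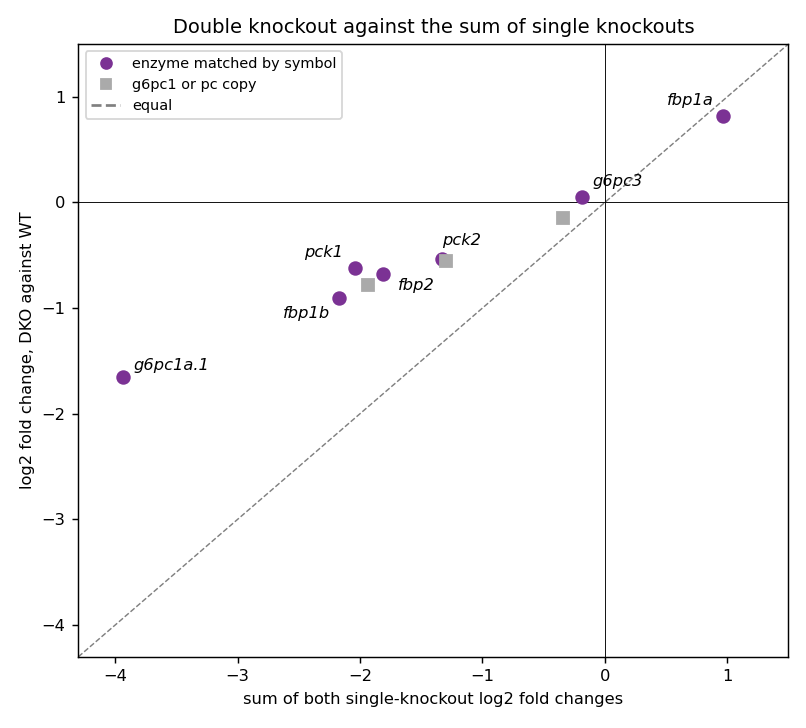
Log2 fold change in DKO against WT (vertical axis) against the sum of the log2 fold changes of both single knockouts (horizontal axis), with 1 point per gene and a dashed line where they are equal. The enzymes that fell lie above the line, g6pc1a.1 farthest at -3.94 and -1.65, and fbp1a lies close to it at 0.97 and 0.82.

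Liver markers were lower in the knockout libraries. Of 25 matched liver markers, 24 were tested, and in DKO 22 fell and 1 rose, where 26.4% of all genes fell and 23.9% rose. Without scaling factors between libraries none rose in DKO. In GLO1KO 19 fell and 0 rose, where 18.1% of all genes fell and 14.6% rose. In ALDH3A1KO 22 fell and 0 rose, where 32.0% of all genes fell and 29.4% rose. Their median log2 fold changes were -1.34, -0.98 and -1.44. The summed liver marker level was 898 to 1164 CPM in DKO, 1162 to 1376 in GLO1KO and 635 to 1063 in ALDH3A1KO, against 1419 to 3101 in WT, and no knockout library reached WT. The retinol carrier gene rbp4, which other tissues also express, was the most abundant of the list, and 0 of the 25 were at 0 in all libraries. The liver plasma protein genes gc (vitamin D binding protein), serpina1l (a protease inhibitor) and fgg (fibrinogen) had log2 fold changes of -2.79, -2.61 and -2.60 in DKO and passed the test.

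Markers of enterocytes, which absorb and package nutrients in the gut, were lower too. Of 23 tested, 18 fell and 0 rose in DKO, 18 fell and 0 rose in GLO1KO, and 19 fell and 0 rose in ALDH3A1KO. Of all genes, 26.4%, 18.1% and 32.0% fell in these comparisons, and 23.9%, 14.6% and 29.4% rose. Their summed level was 736 to 1204 CPM in DKO, 905 to 1086 in GLO1KO and 436 to 1044 in ALDH3A1KO, against 1061 to 1943 in WT, so DKO and GLO1KO overlapped WT. In DKO the amino acid transporter copy slc6a19 (ENSDARG00000018621) fell by 2.08, the lipoprotein assembly gene mttp by 1.04 and the retinol binding protein copy rbp2 (ENSDARG00000093774) by 1.04. Of the 16 kidney proximal tubule markers, 6 fell and 2 rose in DKO, a share called near the 50.3% of all genes. The 3 with the smallest adjusted p, all lower, were the transporter genes slc13a3 (-0.63), slc20a1 (ENSDARG00000020114, -0.76) and slc26a1 (-0.51). The summed level of the 16 markers was 547 to 667 CPM in DKO, 557 to 628 in GLO1KO and 414 to 488 in ALDH3A1KO, against 477 to 624 in WT. This sum was thus not lower in DKO or GLO1KO as groups. A large part of it came from gatm, the most abundant of the list, which averaged 294 CPM over the 20 libraries. The median log2 fold change of the kidney markers was -0.38 in DKO and -0.38 in GLO1KO, beside 0.01 and -0.01 over all genes.

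Fast muscle markers separated ALDH3A1KO from the other genotypes, with a summed level of 31751 to 48608 CPM there. The range was 58001 to 78352 CPM in DKO and 65561 to 73940 in GLO1KO, against 60035 to 71778 in WT. Of 25 muscle markers, 22 fell and 1 rose in ALDH3A1KO, where 32.0% of all genes fell and 29.4% rose. In DKO 7 fell and 4 rose (13 and 3 without scaling factors), where 26.4% of all genes fell and 23.9% rose. The share of muscle markers that fell in DKO was thus near that of all genes in the main fit. The median log2 fold change of these markers in DKO was -0.21, beside 0.01 over all genes. A calcium release channel copy, ryr1 (ENSDARG00000023797), was lower in DKO by 1.33. Among the troponin I copies, tnni2 (ENSDARG00000045592) fell by 1.35 and tnni2 (ENSDARG00000013752) rose by 0.76.

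**Figure D5:**
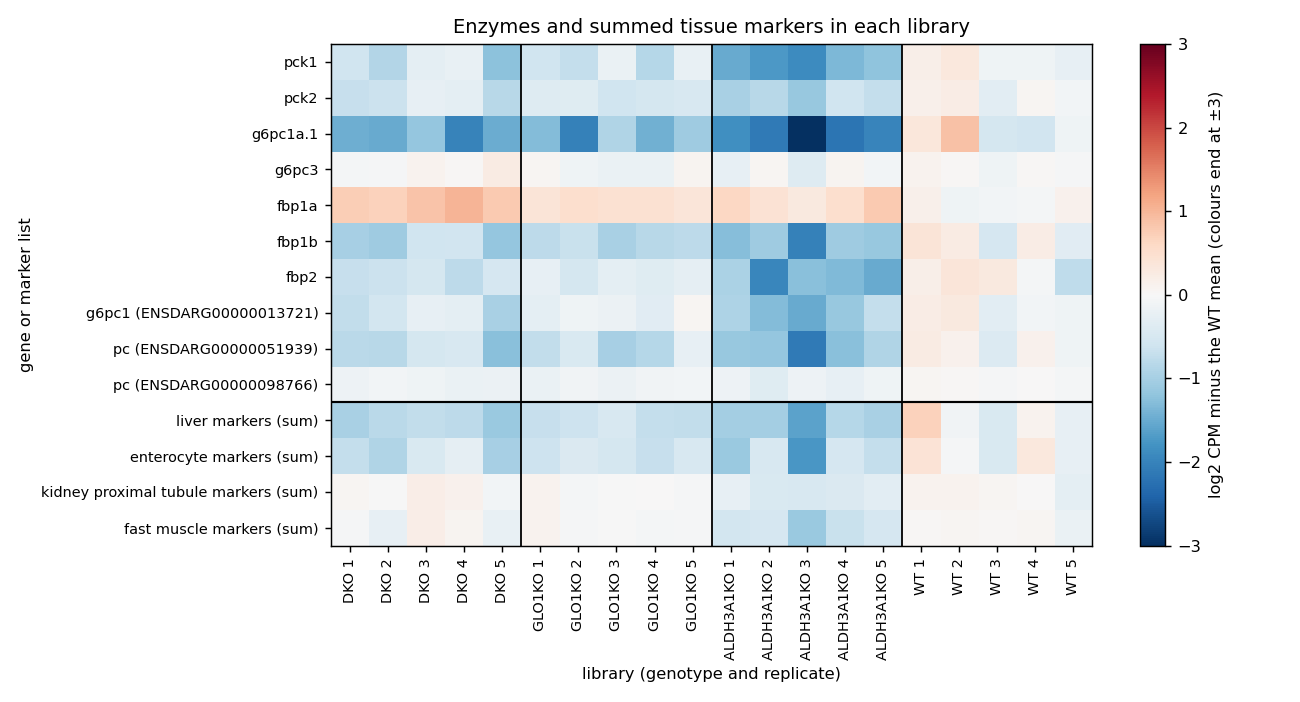
Log2 CPM minus the WT mean (colour, ending at 3 in both directions) of the 7 enzymes, the g6pc1 and pc copies and 4 summed marker lists (rows) in each of the 20 libraries (columns, DKO, GLO1KO, ALDH3A1KO and WT). The rows of most enzymes and of the liver and enterocyte sums are blue in the knockout libraries, fbp1a is red in them, and ALDH3A1KO replicate 3 is the bluest for g6pc1a.1, fbp1b and both marker sums.

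The enzymes differed in how far they moved relative to the summed liver markers of the same library. A large part of that sum came from rbp4, which other tissues also express. It averaged 498 CPM over the 20 libraries, where the group means of the sum were 920 to 2010 CPM. Ratios to a sum without rbp4 were not computed. For fbp1b this log2 ratio stood 0.00 from the WT mean in DKO (SD 0.18), -0.17 in GLO1KO (SD 0.18) and -0.22 in ALDH3A1KO (SD 0.14), with an SD of 0.24 in WT (n = 5 each). For pck2 it stood 0.34, 0.18 and 0.25 from the WT mean (SD 0.14, 0.17 and 0.16, and 0.33 in WT), and for pck1 0.24, 0.13 and -0.44 (SD 0.31, 0.28 and 0.19, and 0.38 in WT). Against this sum, the group means of fbp1b and pck1 lay within the range of the WT libraries, and so did those of pck2 but for DKO, whose 0.34 was above the highest WT library (0.31). For g6pc1a.1 it stood lower at -0.67, -0.73 and -1.53 (SD 0.35, 0.44 and 0.94, and 0.63 in WT). The DKO mean lay within the range of the WT libraries, whose lowest was -0.69, and the GLO1KO and ALDH3A1KO means lay below it. For fbp1a it stood higher at 1.71, 1.08 and 1.63 (SD 0.15, 0.08 and 0.22, and 0.38 in WT). A higher ratio to this sum was not particular to fbp1a. For g6pc3, whose own level was not called, the ratio stood at 0.94, 0.57 and 0.98, where the highest WT library was at 0.31. For pc (ENSDARG00000098766), whose own level fell, it stood at 0.74, 0.51 and 0.89, where the highest WT library was at 0.40. In the enterocyte sum, apoa1a was the most abundant gene and averaged 372 CPM over the 20 libraries. The group means of that sum were 816 to 1496 CPM, and ratios to it without apoa1a were not computed. Against the summed enterocyte markers the picture differed for fbp1b, which stood at -0.22 in DKO, -0.27 in GLO1KO and -0.41 in ALDH3A1KO (SD 0.07, 0.13 and 0.17, and 0.16 in WT). Every knockout library (the highest at -0.14) was there below every WT library (the lowest at -0.12). For pck1 this ratio stood at 0.01, 0.03 and -0.63, the last below the lowest WT library (-0.45), and for pck2 at 0.12, 0.08 and 0.06, within the WT range. For g6pc1a.1 it stood at -0.89, -0.83 and -1.72, where the lowest WT library was at -0.90. Relative to the fast muscle sum, fbp2 stood at -0.58 in DKO, -0.34 in GLO1KO and -0.73 in ALDH3A1KO (SD 0.24, 0.10 and 0.52, and 0.36 in WT). The lowest WT library was there at -0.577, so the DKO mean lay at the edge of the WT range and the GLO1KO mean within it. Against the liver sum fbp2 stood at 0.26, 0.30 and -0.31 (WT libraries -0.52 to 0.74). Against the enterocyte sum it stood at 0.04, 0.20 and -0.49 (WT libraries -0.53 to 0.75), so both sets of means lay within the WT range. A mean of 5 libraries varies less than single libraries do, so a mean within the WT range does not show that there was no difference. For fbp2 against the muscle sum, the GLO1KO libraries stood at -0.49 to -0.25, all below the WT mean. These ratios are descriptions, and the part of tissue content in the enzyme changes was not tested beyond them.

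The connected lists are read against the shares of all genes called, in DKO 23.9% higher and 26.4% lower, and in ALDH3A1KO 29.4% higher and 32.0% lower. Among 30 other gluconeogenesis genes (transaminases, malate and lactate dehydrogenases, glycerol phosphate dehydrogenases and carriers), 10 fell and 4 rose in DKO, with a median log2 fold change of -0.08 beside 0.01 over all genes, and the share called in either direction was near the 50.3% of all genes. Without scaling factors between libraries these counts were 18 and 2. The cytosolic aspartate transaminase got1 fell by 0.40 (SE 0.05), the glycerol phosphate dehydrogenase genes gpd1l by 0.79 (SE 0.11) and gpd2 by 1.09 (SE 0.15). In ALDH3A1KO 19 of the 30 fell and 3 rose, with a median of -0.22.

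Reversible enzymes shared with glycolysis were mixed: 7 of 19 rose and 3 fell in DKO, with a median of 0.08, again a share called near that of all genes. Without scaling factors this split turned to 3 higher and 5 lower. The enolase copy eno1 (ENSDARG00000013750) rose by 0.53 (SE 0.06). The aldolase C copy aldoc (ENSDARG00000019702) rose by 0.43 (SE 0.07), and its other copy aldoc (ENSDARG00000057661) fell by 0.44 (SE 0.08). Of the 19 tested genes of the opposing, irreversible glycolytic steps, 9 fell and 1 rose in DKO, with a median of -0.23. The share called in either direction was likewise near that of all genes, with fewer higher than lower, and without scaling factors none rose. The phosphofructokinase copies pfkl (ENSDARG00000060504) and pfkp (ENSDARG00000028000) fell by 1.11 (SE 0.15) and 0.39 (SE 0.07), and hkdc1, a hexokinase gene, fell by 1.22 (SE 0.20).

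Among 50 tested regulators of gluconeogenesis, 23 fell and 7 rose in DKO, with a median of -0.28, where 26.4% of all genes fell and 23.9% rose. In ALDH3A1KO 26 fell and 8 rose, with a median of -0.41, where 32.0% of all genes fell and 29.4% rose. The stress-responsive transcription factor gene atf4a rose by 0.50 in DKO (SE 0.05, edgeR adjusted p = 9.24e-08), at 342 ± 8.32 CPM against 241 ± 16.9 CPM in WT (SD, n = 5 each). The transcription factor genes onecut1, active in liver, and foxo3b, a forkhead factor restrained by insulin signalling, fell by 1.03 (SE 0.12) and 0.70 (SE 0.08). Without scaling factors 3 regulators rose in DKO in place of 7. These lists were described by their counts, and no list was tested as a set.

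The genes whose levels most resembled each enzyme over the 20 libraries were found by Pearson correlation of log2 CPM, as a description over libraries that share 4 genotypes. For fbp1b these were cdh17, an intestinal cadherin gene (r = 0.98), and glud1b, a glutamate dehydrogenase gene (r = 0.97). For pck2 they were cdh17 (r = 0.98) and slc5a1, a sodium-glucose cotransporter gene (r = 0.97). The enzyme pck1 was nearest to zgc:175280 (r = 0.95) and txlnb (r = 0.95). The enzyme fbp1a was nearest to the actin-binding profilin gene pfn1 (r = 0.96) and to dcdc2b (r = 0.94), and fbp2 to a carnitine acetyltransferase copy, crat (ENSDARG00000016545, r = 0.96), and the complex I gene ndufb11 (r = 0.94). For g6pc1a.1 they were nherf4 (ENSDARG00000040568, r = 0.91) and sptlc3 (r = 0.91), and for g6pc3 slc16a10 (r = 0.77) and trpm4a (r = 0.77). The gene cdh17 averaged 39.5 CPM in DKO, 42.2 in GLO1KO and 31.0 in ALDH3A1KO, against 62.9 in WT.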

How the data were processed

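The authors deposited counts of reads per gene, as whole numbers, made with featureCounts 2.0.3 on build GRCz11, per the submitters' processing notes. Libraries were strand-specific mRNA libraries, per the labels' protocols. The aligner, annotation and strand setting are not given in the sources used here. Overlapping and antisense genes can therefore not be told apart. Symbols were matched to 29201 of 32520 IDs. List symbols without a match were searched without their paralog letter. The enzymes and gene lists were chosen with earlier results of these data known.

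After filterByExpr, 22234 genes were fitted over the 20 libraries with edgeR 4.0.16 in R 4.3.3 (TMM factors, robust quasi-likelihood F-test, two-sided, Benjamini-Hochberg adjustment over all genes, threshold 0.05). Each SE was the size of the log2 fold change divided by the square root of its F. Changes of genes given without a p passed that test. Intervals of fold changes are nominal 95% intervals from these errors by the normal distribution, and are thus somewhat narrower than ones matched to the F-test. CPM were computed with TMM factors. Ratios within a library used counts plus 0.5 and a two-sided exact permutation test. Named genes were the enzymes and copies, the 3 genes of each list with the smallest adjusted p in DKO against WT, and the 2 genes nearest each enzyme by correlation. The settings varied were the scaling factors, the test (DESeq2 1.42.0 and voom of limma 3.58.1), the filter, no robust estimation, a replicate block, only the 2 genotypes compared, other pseudocounts and each library left out. The fit and the permutation test were tested on simulated data. Figures were drawn with matplotlib 3.10.9.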

Additional observations from a re-analysis of the deposited data

Results flagged for a closer look

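In ALDH3A1KO, replicate 3 stood apart from the other 4 libraries for g6pc1a.1 (0.110 CPM, the others 0.700 to 0.905) and for fbp1b (12.1 CPM, the others 20.6 to 24.0). The gap to the nearest library exceeded Dixon's critical value of 0.71 of the group's range. This was seen in 2 of 40 gene and genotype groups tested, and chance gives about 1 in 20. The same library had the lowest summed liver (635 CPM), enterocyte (436 CPM) and fast muscle (31751 CPM) marker levels of all 20 libraries, and the part of this in the enzyme values was not tested.

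The effect of losing glo1 differed with the aldh3a1 genotype, by the interaction test, for 5 of the 7 enzymes and for the g6pc1 and pc copies that were tested. Most liver, enterocyte and fast muscle markers also passed this test with positive values. The interactions on the log2 scale were 2.28 for g6pc1a.1, 1.42 for pck1, 1.27 for fbp1b, 1.13 for fbp2 and 0.79 for pck2. They were 0.74 for g6pc1 (ENSDARG00000013721, edgeR adjusted p = 0.0162), 1.16 for pc (ENSDARG00000051939, edgeR adjusted p = 0.00558) and 0.19 for pc (ENSDARG00000098766, edgeR adjusted p = 0.0326). The last was lost without WT replicate 1 or 2, ALDH3A1KO replicate 2 or 4, GLO1KO replicate 1 or 3 or DKO replicate 2 (edgeR adjusted p 0.0520 to 0.0619).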

How the results depend on the processing

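The counts of enzymes called kept within 1.5 times of their values in all alternatives but 1: with only the 2 genotypes in the fit, 2 enzymes in place of 1 were called in DKO against GLO1KO. Without scaling factors the median of all genes moved to -0.14 in DKO, -0.11 in GLO1KO and -0.11 in ALDH3A1KO, and g6pc3 in DKO turned to -0.10, not called. In GLO1KO, pck1 passed by DESeq2 (adjusted p = 0.0273), limma-voom (0.00917) and 6 other settings, and fbp2 by limma-voom (0.0464) and without scaling factors (0.0249). Leaving out 1 library turned uncalled values in DKO against GLO1KO: pck1 ranged from -0.220 to 0.0150, pck2 from -0.125 to 0.0104, fbp1b from -0.129 to 0.0173 (each highest without DKO replicate 5) and pc (ENSDARG00000098766) from -0.0268 to 0.0029, with 0.00039 without DKO replicate 4. The enzyme counts with 1 library left out were 2 to 4 in DKO against ALDH3A1KO and 4 to 6 in GLO1KO against WT. The pck1 over pck2 difference in GLO1KO ranged from -0.16 to 0.0272, and that of fbp1a over fbp2 from 0.65 to 1.0.

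No clear pairing of libraries by replicate number was seen. Of 30 same-numbered pairs, 5 had a correlation of deviations above 0.1, the highest at 0.25, and 6 of 20 libraries correlated best with their own number. This check cannot tell whether same-numbered libraries shared a clutch. With the replicate block, the fit across genes changed no call of the 7 enzymes, and pc (ENSDARG00000098766) lost its GLO1KO call (adjusted p = 0.0580) and its interaction (0.0508). In the paired exact permutation test of the ratios, which cannot go below p = 0.0625, the differences 1.70, 1.25 and 1.85 (fbp1a over fbp1b), 1.45 and 1.94 (fbp1a over fbp2) and -0.69 (pck1 over pck2) had adjusted p = 0.094. Depth limits g6pc1a.1, at 4 to 62 counts in knockout libraries.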

Other observations

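Some further genes of glucose metabolism are named here after their values in DKO against WT were seen. Of the 50 tested regulators 23 fell and 7 rose in DKO, where 26.4% of all genes fell and 23.9% rose. Most liver and enterocyte markers fell there as well. The regulators that fell included the coactivator gene ppargc1a (log2 fold change -1.04, SE 0.18, edgeR adjusted p = 8.15e-05), the nuclear receptor gene hnf4a (-1.08, SE 0.18, edgeR adjusted p = 2.39e-05) and creb3l3a (-1.64, SE 0.45, edgeR adjusted p = 0.00364), which act in hepatic gluconeogenesis in mammals. Their levels were 8.73 ± 0.607, 4.99 ± 0.751 and 0.236 ± 0.178 CPM in DKO, against 17.9 ± 3.58, 10.5 ± 2.38 and 0.742 ± 0.260 CPM in WT (SD, n = 5 each). The gene creb3l3a was near the floor, with 3 to 18 counts in a DKO library. Its highest DKO library (0.534 CPM) lay above its lowest WT library (0.386 CPM). The transcription factor gene cebpb was higher, at 117 ± 14.7 CPM in DKO against 59.4 ± 17.2 CPM in WT (0.97, SE 0.24, edgeR adjusted p = 0.00251).

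A glucose-6-phosphate transporter gene, slc37a4 (ENSDARG00000038106), which works with glucose-6-phosphatase, stood at 7.55 ± 1.69 CPM in DKO and 16.5 ± 3.95 CPM in WT (-1.12, SE 0.20, edgeR adjusted p = 0.000102). Another gene of this transporter, slc37a4b (ENSDARG00000077180), was matched too, and its values are not given here. Glucokinase, which runs opposite to glucose-6-phosphatase, was lower as well: gck stood at 0.551 ± 0.136 CPM in DKO and 1.90 ± 1.56 CPM in WT (-1.78, SE 0.49, edgeR adjusted p = 0.00490). The insulin gene ins stood at 1.95 ± 0.250 CPM in DKO and 4.26 ± 1.97 CPM in WT (-1.13, SE 0.26, edgeR adjusted p = 0.000789). Both gck and ins overlapped WT and spread widely there, with coefficients of variation of 82.1% and 46.3%. Their highest DKO libraries were at 0.686 and 2.22 CPM, and their lowest WT libraries at 0.566 and 2.12 CPM. For gck a DKO library held 14 to 23 counts.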
